A study of Rattus norvegicus with 9 samples.

Results

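The genes described here are 10 genes of myelin and of the Schwann cells that make it in peripheral nerve: Sox10, Mbp, Pmp22, Mal, Pllp, Cd9, Ugt8, Cnp, Prx and Cldn19. They were followed in dorsal root ganglia, the sensory ganglia of the spinal nerves, in Sprague-Dawley rats. Every probe set (a group of short probes for a transcript) that the platform annotation gives to a member's symbol alone was taken, which gave 14 probe sets for 10 of the 10411 genes with such a probe set. All 10 genes, and 13 of the 14 probe sets, were bright enough to be tested, among 6990 genes tested in all. The exception was a second Ugt8 probe set, with deposited signals between 2 and 11 on the 9 arrays.

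Normal rats given vehicle were compared with rats made diabetic with streptozotocin (STZ), which destroys pancreatic beta cells, and given vehicle. The last group received STZ and FK1706, a ligand of the immunophilins. Lumbar ganglia (L4 to L6) came from rats dosed for 1, 2 or 3 weeks and were collected on the next day. Each array holds equal amounts of RNA from 5 rats, with 1 pool for each group and week. The error behind every p-value is therefore that of pools, in which the spread of single rats is averaged and cannot be separated out. Age, sex, the doses and the blood glucose of the rats were not given in the sources used here. Week stands for the replicate throughout, and a group difference that varied by week adds to the error.

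Schwann cells wrap the larger sensory axons in sheets of membrane that are pressed together into compact myelin. Proteins such as those of Mbp and Pmp22 hold or shape the compact layers, while other proteins keep channels of cytoplasm open, seal the sheet's edges and tie the outer surface to the basal lamina. Sox10 is a transcription factor of peripheral glia that many myelin genes need, and it is also made by the satellite glia that surround nerve cell bodies. In a whole ganglion, fewer cells of a type and less RNA per cell cannot be told apart.

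Upstream sequences are shown for 4 of the members whose annotated gene start coincides with the start used in the RefSeq promoter table (build GRCr8). Cnp and Ugt8 are shown because their windows hold a motif match, and Mal and Pllp because they encode related proteins. Each is the 250 bases before the start, written 5′ to 3′ on the gene's strand, and capitals mark a match to 1 of the motifs searched. Cnp (chr10:86011254-86011503, plus strand), Mal (chr3:135341424-135341673, minus strand), Pllp (chr19:10320830-10321079, plus strand) and Ugt8 (chr2:217007168-217007417, minus strand) read as follows.
Cnp: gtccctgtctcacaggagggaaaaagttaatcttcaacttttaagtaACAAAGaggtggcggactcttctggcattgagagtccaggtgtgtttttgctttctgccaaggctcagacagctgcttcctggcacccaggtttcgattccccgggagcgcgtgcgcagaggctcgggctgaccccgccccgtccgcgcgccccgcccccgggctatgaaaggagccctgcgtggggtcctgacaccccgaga
Mal: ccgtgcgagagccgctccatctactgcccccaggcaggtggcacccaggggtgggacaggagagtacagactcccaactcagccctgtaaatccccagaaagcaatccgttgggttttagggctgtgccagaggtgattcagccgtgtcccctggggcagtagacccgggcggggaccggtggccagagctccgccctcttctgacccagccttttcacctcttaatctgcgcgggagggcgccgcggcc
Pllp: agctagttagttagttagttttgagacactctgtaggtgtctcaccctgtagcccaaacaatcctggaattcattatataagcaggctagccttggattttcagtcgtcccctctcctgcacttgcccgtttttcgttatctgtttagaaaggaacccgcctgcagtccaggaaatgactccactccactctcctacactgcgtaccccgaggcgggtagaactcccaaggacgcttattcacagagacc
Ugt8: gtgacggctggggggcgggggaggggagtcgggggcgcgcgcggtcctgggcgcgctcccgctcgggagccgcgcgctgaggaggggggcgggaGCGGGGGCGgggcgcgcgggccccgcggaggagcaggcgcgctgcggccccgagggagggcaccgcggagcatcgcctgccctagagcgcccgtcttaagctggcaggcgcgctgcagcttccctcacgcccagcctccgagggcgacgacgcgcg

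The table held promoters for 9 of the 10 members, in 10 windows because Mbp has a pair of starts, and each window ran from 250 bases before to 50 after the start. Both strands were searched for a Sox motif (ACAAAG or ACAATG), an Egr motif (GCGNGGGCG) and a sterol response motif (TCACNCCAC). No window held matches to more than 1 motif, so no matches of different motifs overlapped. The Sox motif was in 2 of the 10 windows, against 29.1% of 33469 promoters. Those were the Cnp window, with its match starting at position -203 from the start, and the second Mbp window, with 3 matches. The Egr motif was in 1 window, that of Ugt8, against 4.98% of promoters, and the sterol response motif was in 0, against 1.12%. A match describes these letters and is no evidence of binding.

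The arrays were not on a common scale as deposited, with trimmed mean signals from 359.7 to 532.3 that were lower in the later weeks in every group. Values below are log2 signals after quantile normalization, which gives every array the same distribution, unless the deposited signal is named. Before that step, all genes together were shifted by a median of -0.10 log2 units between STZ vehicle and normal, -0.07 between FK1706 and STZ vehicle and -0.17 between FK1706 and normal, and differences below are relative to these shifts. The ratio of 3′ to 5′ actin probe sets, a measure of RNA integrity, lay between 1.02 and 1.24. Pairs of arrays correlated with r between 0.969 and 0.981 across the genes tested. The tissue label was checked against 19 tested sensory neuron markers, whose summed signals lay between 85228 and 88259.5 (normalized units), while Mog and Mobp, markers of central myelin, had deposited signals of 7.4 to 62.2 and 6.8 to 80.1.

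Setting STZ vehicle against normal rats asks how myelin transcripts differ in diabetic ganglia. Most members read lower in the STZ pools, by little in week 1 and by more in weeks 2 and 3. Cnp, Prx and Sox10 had the largest mean differences, and the brightest probe sets of Mbp and Pmp22 had almost none. With limma, 0 of the 10 members passed at an adjusted p under 0.05, where 6 of 6990 genes did (0.0858%). At an unadjusted p under 0.05, 7 of 10 members were lower, against 4.71% of all genes tested. The members and the gene lists used below were chosen with earlier results of these data known. Counts set against a share of all genes, here and below, therefore describe these genes and are no independent test.

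Sox10, the regulator among them, was at 8.56, 8.83 and 8.66 in the normal pools of weeks 1, 2 and 3. It was at 8.37, 8.27 and 8.26 in the STZ vehicle pools and at 8.60, 8.56 and 8.23 in the FK1706 pools. All STZ vehicle pools lay below all normal pools, while the FK1706 pools of weeks 1 and 2 lay near the lowest normal pool. The log2 difference of STZ vehicle from normal was -0.39 (SE 0.121, limma adjusted p = 0.425), which is 1.31-fold.

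Mbp encodes myelin basic protein, which joins the cytoplasmic faces of compact myelin. Its brightest probe set read 13.56, 13.50 and 13.53 in the normal pools, 13.56, 13.36 and 13.50 with STZ vehicle and 13.46, 13.44 and 13.40 with FK1706. The STZ vehicle pools overlapped the normal ones, and the difference was -0.06 (SE 0.0507, limma adjusted p = 0.767). Its dimmer probe set read 13.09, 13.13 and 13.00 in normal pools, 13.19, 12.79 and 12.79 with STZ vehicle and 13.21, 12.84 and 12.75 with FK1706. In that probe set the pools of weeks 2 and 3 from both STZ groups lay below all normal pools, and the week 1 pools of both lay above them.

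Pmp22 encodes a membrane protein of compact peripheral myelin whose gene dosage underlies inherited neuropathies. On its brightest probe set the normal pools read 13.82, 13.78 and 13.82, the STZ vehicle pools 13.82, 13.69 and 13.81 and the FK1706 pools 13.75, 13.69 and 13.69. The STZ vehicle difference was -0.03 (SE 0.0445, limma adjusted p = 0.857). Its dimmer probe set read 13.32, 13.32 and 13.34, then 13.29, 13.03 and 13.17, then 13.16, 13.16 and 13.13 in the same order of groups. There, both STZ groups lay below all normal pools in every week, with a difference of -0.16 for STZ vehicle (SE 0.0582, limma adjusted p = 0.483).

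Mal and Pllp encode related proteolipids of membrane rafts that sort myelin components to the cell surface. Mal was at 11.23, 11.07 and 11.17 in normal pools, at 11.01, 10.76 and 10.97 with STZ vehicle and at 10.96, 10.73 and 10.98 with FK1706. All 6 pools of STZ rats were below all 3 normal pools, and the week 1 difference for STZ vehicle (-0.21) was already near the mean over the weeks (-0.24, SE 0.0664, limma adjusted p = 0.335). Pllp was at 10.14, 10.05 and 10.12 in normal pools, at 10.07, 9.69 and 9.68 with STZ vehicle and at 10.21, 9.70 and 9.73 with FK1706. The week 1 pools of the STZ groups were close to the normal range and their weeks 2 and 3 lay below it, and the STZ vehicle difference was -0.29 (SE 0.0998, limma adjusted p = 0.457).

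Cd9, a tetraspanin of the Schwann cell surface that other cells also make, was at 12.29, 12.40 and 12.42 in normal pools. With STZ vehicle it was at 12.31, 12.04 and 12.14, and with FK1706 at 12.32, 12.18 and 12.12. As for Pllp, the groups were level in week 1 and apart in weeks 2 and 3, with a mean difference of -0.20 for STZ vehicle (SE 0.0759, limma adjusted p = 0.482).

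Ugt8 encodes the enzyme that makes galactosylceramide, the main glycolipid of myelin. It was at 10.61, 10.16 and 10.61 in normal pools, at 10.58, 10.02 and 10.20 with STZ vehicle and at 10.41, 10.18 and 10.26 with FK1706. The week 2 pools were low in every group, normal rats included, and the groups overlapped. The STZ vehicle difference was -0.20 (SE 0.0951, limma adjusted p = 0.577), and most of it lay in week 3 (-0.42).

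Cnp encodes a cyclic nucleotide phosphodiesterase of the cytoplasmic channels of myelin. The normal pools read 11.31, 11.31 and 11.27, with an SD of 0.0189 over the 3 pools. With STZ vehicle Cnp was at 11.20, 10.81 and 10.80, and with FK1706 at 11.22, 10.80 and 10.77. Both STZ groups lay below all normal pools in every week, and their weeks 2 and 3 were far below their week 1. The STZ vehicle difference was -0.36 (SE 0.0911, limma adjusted p = 0.316), and the second probe set gave -0.34 (SE 0.117, limma adjusted p = 0.467).

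Prx encodes periaxin, a scaffold that links the outer Schwann cell membrane through dystroglycan to the basal lamina. It was at 11.81, 11.75 and 11.80 in normal pools, at 11.73, 11.26 and 11.44 with STZ vehicle and at 11.68, 11.46 and 11.61 with FK1706. No pool of STZ rats reached the lowest normal pool, and week 2 was the lowest week of each STZ group. The STZ vehicle difference was -0.31 (SE 0.0786, limma adjusted p = 0.316). Cldn19 encodes a claudin of the tight junctions within the Schwann cell's own membrane. It was at 10.02, 9.91 and 10.11 in normal pools, at 9.84, 9.59 and 9.90 with STZ vehicle and at 9.89, 9.84 and 9.65 with FK1706, so that the highest pools of both STZ groups lay just under the lowest normal pool. Its STZ vehicle difference was -0.23 (SE 0.102, limma adjusted p = 0.554).

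**Figure D1:**
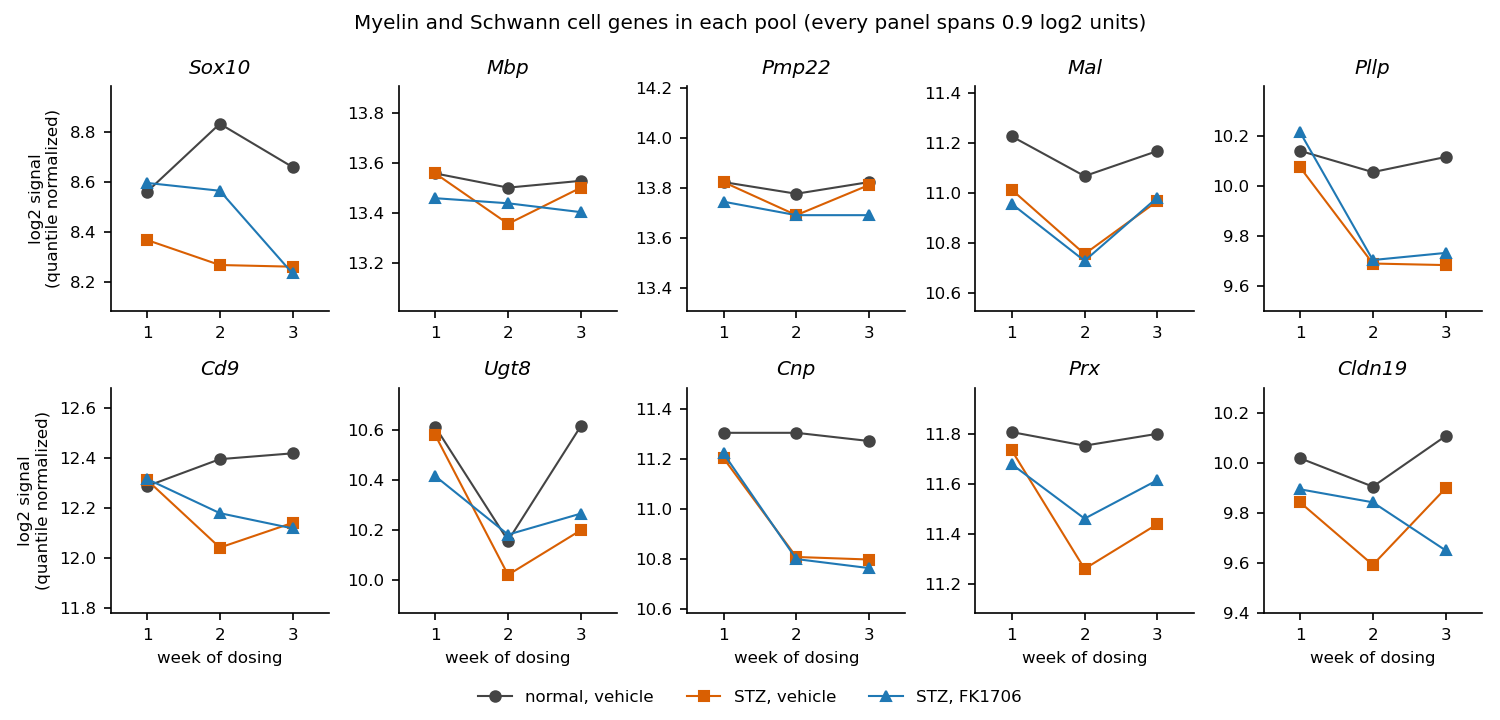
Normalized log2 signal of each member (brightest probe set) against week of dosing, with 1 point for each pool of 5 rats and a line for each group; every panel spans 0.9 log2 units, so slopes compare across panels. In Cnp, Pllp, Prx and Cd9 the STZ lines start near the normal line in week 1 and lie below it in weeks 2 and 3, while the Mbp and Pmp22 lines stay close together.

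Read pool by pool, STZ vehicle was lower than normal in every week for 7 of 10 members (all but Mbp, Pmp22 and Cd9), against 16.1% of all genes tested. Mbp and Pmp22 were tied with normal in week 1 (difference 0). On the trimmed-mean scale the count was 8. On the deposited scale it was 10, with a median of all genes of -0.10, and the share of all genes was not computed there. All 3 STZ vehicle pools lay below all 3 normal pools for 5 members, Sox10, Mal, Cnp, Prx and Cldn19, against 6.94% of genes. The median difference over the 10 members was -0.24, where that over all genes was 0.00, and the members' medians were -0.07, -0.33 and -0.32 in weeks 1, 2 and 3. The mean difference was below 0 for every member after quantile normalization, but on the trimmed-mean scale Pmp22 turned to 0.05. The count of 7 at an unadjusted p was 4 without the STZ vehicle pool of week 2, 4 without the normal pool of week 3, 3 with all week 2 pools left out and 4 with all week 3 pools left out.

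Whether the difference grew over the weeks was tested with a linear week term for each group. For STZ vehicle against normal the slope was negative for 9 of 10 members, from -0.19 (Ugt8) to 0.01 (Mal) log2 units per week. With limma 0 members passed (lowest adjusted p = 0.999), as did 0% of all genes, and 0 members had an unadjusted p under 0.05, against 3.96% of genes in either direction. The growth from week 1 to the later weeks is therefore a description of 1 pool per group and week. FK1706 against STZ vehicle and against normal also gave 0 members, with 0% of genes passing in each and 3.3% and 4.79% at an unadjusted p.

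**Figure D2:**
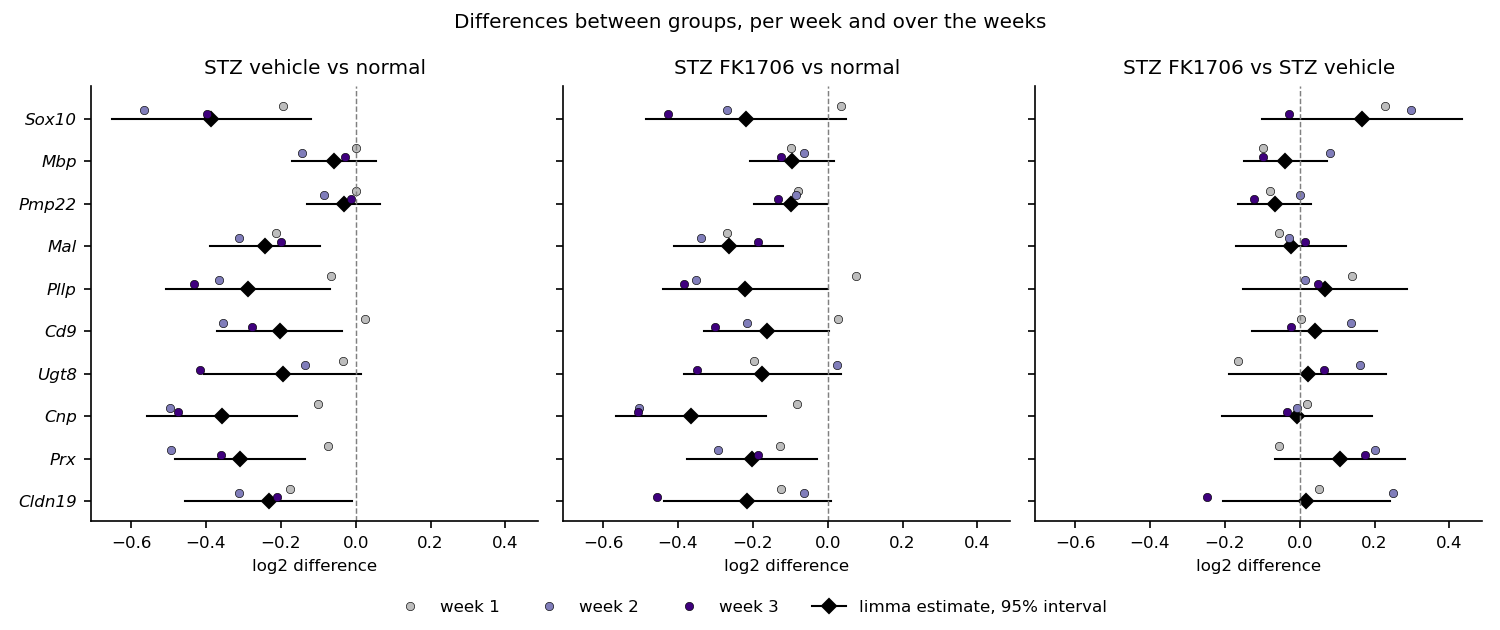
Log2 difference of each member for STZ vehicle against normal, FK1706 against normal and FK1706 against STZ vehicle; circles are the differences between single pools of weeks 1, 2 and 3 (light to dark), diamonds the limma estimates and lines their 95% intervals. For STZ vehicle against normal 7 of the 10 intervals lie below 0, and for FK1706 against STZ vehicle all 10 cross 0.

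The comparison of FK1706 with vehicle in STZ rats asks whether the drug moved these transcripts. With limma 0 of 10 members passed, as did 0% of 6990 genes, and 219 genes had an unadjusted p under 0.05. No member was lower at an unadjusted p under 0.05 (1.76% of genes) or lower in every week (11.5% of genes). Pllp alone was higher in every week (12.3% of genes), by 0.14, 0.01 and 0.05, and on the deposited scale its mean difference turned to -0.02.

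The largest estimate was that of Sox10, at 0.17 (95% interval -0.10 to 0.43), with 0.23 and 0.30 in weeks 1 and 2 and -0.03 in week 3. Prx followed at 0.11 (95% interval -0.07 to 0.28). For Cnp the estimate was -0.01 (95% interval -0.21 to 0.19) and for Mal -0.02 (95% interval -0.17 to 0.12). Over the members the median was 0.02, and for 5 of the 10 members (Sox10, Mbp, Cd9, Ugt8 and Cldn19) the interval reached at least as far above 0 as STZ vehicle lay below normal. On the deposited scale the members' median was -0.05 and that of all genes -0.07.

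FK1706 was also set against normal, a comparison that shares its control pools with the first and its drug pools with the second. With limma 0 members passed, where 1 of 6990 genes did (0.0143%). At an unadjusted p under 0.05, 5 members were lower (Prx, Pmp22, Pllp, Mal and Cnp), against 4.51% of genes. The difference was -0.36 for Cnp (SE 0.0911, limma adjusted p = 0.291), where STZ vehicle had -0.36, and -0.26 for Mal (SE 0.0664, limma adjusted p = 0.291), where STZ vehicle had -0.24. Prx was at -0.20 (SE 0.0786, limma adjusted p = 0.556), where STZ vehicle had -0.31, and the difference between these values is the FK1706 estimate of Prx given above, whose interval crosses 0.

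Against normal, 6 members were lower with FK1706 in every week (14.1% of genes), and the same 6 had all FK1706 pools below all normal pools (6.05% of genes). They were Mbp, Pmp22, Mal, Cnp, Prx and Cldn19. The members' median differences were -0.09, -0.24 and -0.32 in weeks 1, 2 and 3, and -0.21 over the weeks. The count at an unadjusted p was 3 without the normal pool of week 2, 2 without that of week 3, 3 without the FK1706 pool of week 3 and 3 without the STZ vehicle pool of week 1 or week 3. On the deposited scale all 10 members were lower in every week, and Cnp (adjusted p = 0.0242) and Mal (adjusted p = 0.027) passed with limma. There the median of all genes was -0.17 and 106 genes passed, so these counts cannot be told apart from the array scale. The share of all genes lower in every week was not computed for the deposited scale. On the trimmed-mean scale 4 members were lower in every week. On that scale Pmp22's mean difference turned to 0.05, and in week 2 Mbp and Pmp22 were above normal, by 0.08 and 0.15.

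Across weeks, with the groups as a factor, 5 members were lower in week 2 than in week 1 at an unadjusted p under 0.05, against 2.95% of genes. They were Ugt8 (-0.42), Pllp (-0.33), Cnp (-0.27), Prx (-0.25) and Mal (-0.21), and with limma 0 members passed, where 0.0143% of genes did. In week 3 against week 1, Pllp (-0.30) and Cnp (-0.30) were lower at an unadjusted p (6.24% of genes) and 0 passed (0.0143% of genes). Ugt8 (0.24) and Mal (0.19) were higher in week 3 than in week 2 at an unadjusted p (5.35% of genes), and 0 passed (0.0143% of genes).

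These week estimates pool the groups. The normal pools spanned 11.27 to 11.31 for Cnp, 10.05 to 10.14 for Pllp and 10.16 to 10.61 for Ugt8, and the STZ vehicle pools 10.80 to 11.20, 9.68 to 10.07 and 10.02 to 10.58. The test of a different week trend in these groups, given above, passed for no member. As deposited, without a common scale, all 10 members passed with limma in week 3 against week 1, each lower, and so did 5106 of all genes. The median of all genes was then -0.43, so those calls cannot be told apart from the array scale.

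The brightest probe sets were checked for signs of saturation, since a saturated probe set shows less change than its transcript. Pmp22's brightest probe set had the second highest mean signal of all probe sets, and it was the highest of all on 3 arrays, those of normal weeks 1 and 3 and STZ vehicle week 1. Its deposited signals were 16646, 14044 and 13365 in normal rats, 16075, 13149 and 13059 with STZ vehicle and 14408, 13157 and 12474 with FK1706. The highest signal of any probe set lay between 13135 and 16646 on the 9 arrays, and 4 to 8 probe sets on each array lay within 10 percent of that maximum. Mbp's brightest probe set ranked 17 by mean signal. Signals of single probes and scanner limits were not used here, so saturation itself was not measured.

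A pair of probe sets allows a check within a gene. For both Mbp (-0.06 against -0.15) and Pmp22 (-0.03 against -0.16), the brighter probe set gave the smaller difference between STZ vehicle and normal. Cnp's pair, at mean signals of 2194 and 798, gave -0.36 and -0.34. For week 3 against week 1 the brighter and the dimmer probe set gave -0.05 and -0.32 for Mbp, -0.02 and -0.04 for Pmp22 and -0.30 and -0.23 for Cnp, where the brighter set had the larger difference. Probe sets of a gene can also read different transcript ends or isoforms, and that was not tested.

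Over all genes, the 25 brightest had a median SD over the 9 arrays of 0.0743, and the next 75 had 0.0796. The median SD was 0.0918 in the next 400, 0.120 in the next 1500 and 0.169 in the genes below rank 2000. It thus rose at every step towards dimmer genes, with the 25 brightest close to the next 75, and the cause was not tested. In the deposited signals, week 3 minus week 1 was read in the 25 brightest genes and in the bin of 1500 genes that holds Mal, Cnp, Pllp, Ugt8 and Cldn19. The medians were -0.35 and -0.47 in normal rats, -0.35 and -0.55 with STZ vehicle and -0.16 and -0.41 with FK1706. Quantile normalization also gives the top rank of each array the same value, which is why Pmp22 reads 13.82 on each of the 3 arrays where it was highest.

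**Figure D3:**
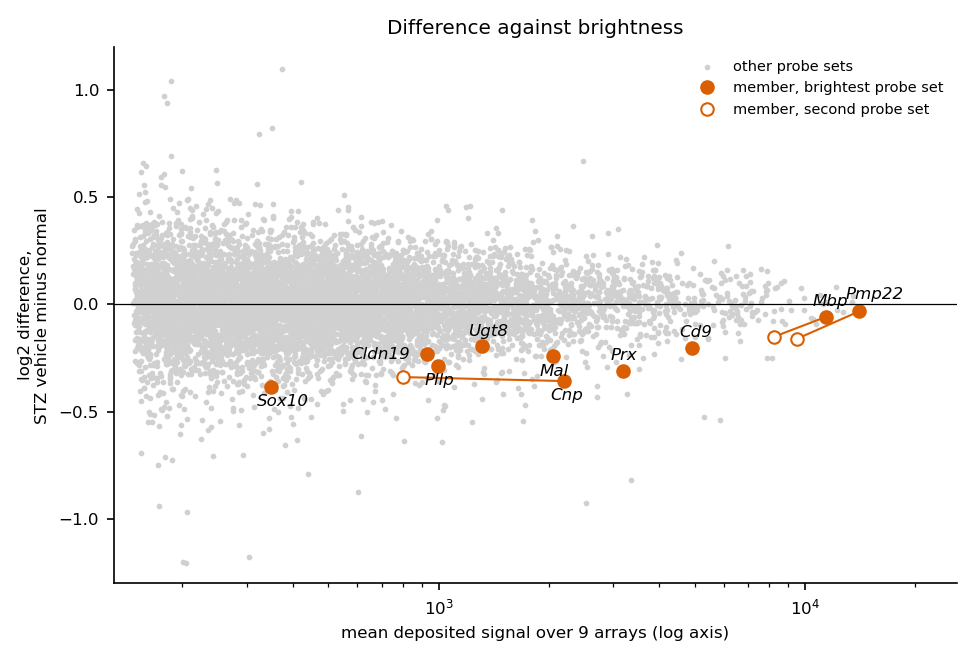
Log2 difference of STZ vehicle from normal against the mean deposited signal of each probe set (log axis); grey points are all other probe sets tested, filled orange points the members' brightest probe sets, open points their second ones, joined by a line. The brighter probe sets of Mbp and Pmp22 lie nearer to 0 than the dimmer ones of the same genes, and the Cnp pair lies level.

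Other genes of the sheath were read from lists of myelin structure and lipid synthesis. At an unadjusted p under 0.05 in STZ vehicle against normal, 329 of all 6990 genes (4.71%) were lower, and 606 were lower or higher. These are to be set beside the list counts of that comparison here and below. Of 15 tested genes of compact myelin and paranode structure, 0 passed in STZ vehicle against normal, 3 were lower and 0 higher at an unadjusted p, and the median was -0.09. The 3 were Lama2 (-0.30), a laminin chain of the basal lamina, Dag1 (-0.18), the dystroglycan to which periaxin connects, and Ndrg1 (-0.16), whose loss causes a demyelinating neuropathy. Mag, an adhesion protein of the inner sheath, had -0.07 (SE 0.207), with weeks on both sides of 0.

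Among 15 tested genes of myelin lipid synthesis 0 passed, with 4 lower and 1 higher at an unadjusted p and a median of -0.09. The 4 were Srebf1 (-0.50), a regulator of fatty acid synthesis, Elovl1 (-0.32), an elongase of very long fatty acids, Scd (-0.26), a desaturase, and Cers2 (-0.25), a ceramide synthase. Scd and Srebf1 were level in week 1 (0.01 each) and lower in weeks 2 and 3. In the list of Schwann cell regulators and signalling genes 0 of 10 tested genes passed, and 0 had an unadjusted p under 0.05. Egr2, the transcription factor that drives myelination with Sox10, had -0.05 (SE 0.108). The list of non-myelinating and repair Schwann cell genes had 0 of 8 passing and 1 higher at an unadjusted p, L1cam (0.23), an adhesion molecule of unmyelinated fibres. Ngfr had -0.12 and Gap43, which sensory neurons also express, 0.13.

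Markers of other cells that a ganglion pool can hold were read beside the members. Of 10 tested fibroblast and epineurium genes, 8 were lower in STZ vehicle than in normal, where 3484 of all 6990 genes were. At an unadjusted p under 0.05, 4 were lower, and the median was -0.10. With limma 2 passed, Col1a1 (-0.82, adjusted p = 0.0104) and Col3a1 (-0.54, adjusted p = 0.0106). The sums given here take in every list gene on the array, tested or not. For the 11 fibroblast genes on the array the sum was 30388 to 39716 in the normal pools, 25599 to 29855 with STZ vehicle and 27777 to 32264 with FK1706. By this sum all STZ vehicle pools lay below all normal pools, and the FK1706 pools overlapped the normal ones. The sum adds linear signals, so its brightest genes weigh most. By the median over tested genes, FK1706 was no nearer to normal than STZ vehicle. In FK1706 against normal, 0 of the 10 tested fibroblast genes passed with limma, 5 were lower at an unadjusted p under 0.05 (4.51% of all genes) and the median was -0.13. A skeletal muscle list was read for tissue that may be carried over in dissection. Its 13 genes on the array summed to 5429 to 9249 in normal pools, with the highest value in week 2. They summed to 4522 to 7017 with STZ vehicle, with the lowest in week 2, and to 4805 to 6529 with FK1706. The median muscle difference was 0.32, -1.90 and 0.16 in weeks 1, 2 and 3 for STZ vehicle against normal, with 0 of 9 tested genes passing and 0 at an unadjusted p. Acta1 had 0.30, -2.28 and 0.06 in these weeks, but Myh1 had -0.10, -0.12 and -0.10. The brightest genes of the list were Pvalb and Myh1 (mean deposited signals 2156 and 1369), so they weigh most in the sums. How much of the sums comes from muscle was not tested. For FK1706 against normal the median muscle difference was -0.27, -0.81 and -0.66, with 0 of 9 tested genes passing. There, 4 were lower at an unadjusted p (4.51% of all genes) and 6 lower in every week (14.1% of all genes).

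Sensory neuron markers summed to 85361 to 86813 in normal pools and 86299.7 to 87257 with STZ vehicle, with 0 of 19 genes passing (2 higher at an unadjusted p) and a median of 0.04. Satellite glia markers gave 20186 to 21217 and 20673 to 21551, with 0 of 8 passing, 0 at an unadjusted p and a median of -0.05. The 9 macrophage and leukocyte genes on the array summed to 7349 to 8247 and 6762 to 7608, with 0 of 6 tested genes passing (1 lower at an unadjusted p) and a median of -0.14. Of endothelium and pericyte genes 0 of 3 passed (1 lower at an unadjusted p), with a median of -0.10, and the 1 adipocyte gene tested, Lpl, had -0.36 and did not pass (limma adjusted p = 0.481). The part of these cells in the members' differences was not tested. In the neuron sum Nefh, Nefm and Nefl weigh most, with mean deposited signals of 12250, 10690 and 9929. Genes about as bright had the smallest SD over the arrays after quantile normalization, so a flat sum is partly set in advance.

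**Figure D4:**
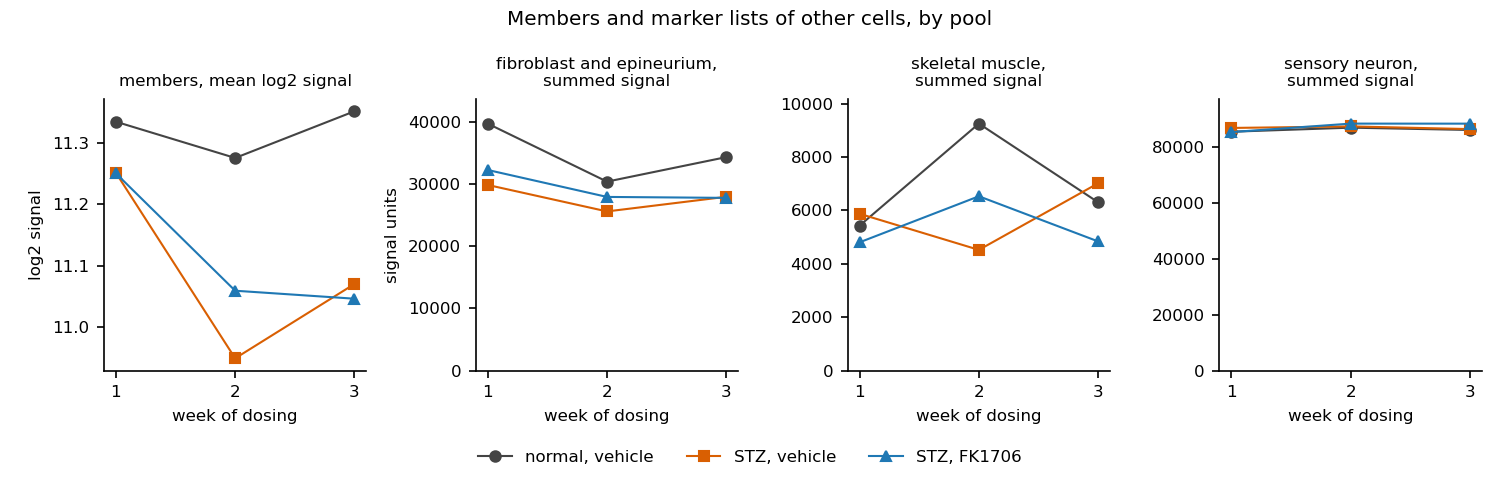
Mean log2 signal of the 10 members and summed normalized signal of the fibroblast and epineurium, skeletal muscle and sensory neuron lists, against week of dosing, with 1 point for each pool and a line for each group (the summed panels start at 0). In week 1 the members' mean was 11.25 in both STZ groups and 11.33 in the normal pool. In weeks 2 and 3 it was between 10.95 and 11.07 in the STZ groups. The fibroblast sum is lower with STZ vehicle than in normal pools in all weeks. The neuron sum, in which very bright genes weigh most, is nearly flat.

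The mean of the members, centred on its average over the 9 arrays, was 0.16, 0.10 and 0.17 in the normal pools of weeks 1, 2 and 3. It was 0.07, -0.23 and -0.11 with STZ vehicle and 0.07, -0.12 and -0.13 with FK1706. Among the members, Cd9 lay closest to this profile, with a root mean square distance of 0.0463, and Sox10 farthest, at 0.139, as large as the profile's own size (0.137). Each member is part of the mean it is measured against, so its distance is partly fixed in advance. By distance among all genes tested, the members' ranks ran from 3 (Cd9) and 22 (Prx) to 571 (Ugt8) and 907 (Sox10). Of genes that are not members, the closest over the 9 arrays were Rcn3 (0.0404), Tram1 (0.0441), Zfp36l2 (0.0511), Col4a1 (0.0512) and Trir (0.0527). Rcn3 and Tram1 encode proteins of the endoplasmic reticulum, Zfp36l2 an RNA-binding protein and Col4a1 a collagen chain of basement membranes. A short distance says that the values were alike on these arrays, all of which share the same pools.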

How the data were processed

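Signal intensities per probe set were made by the authors with MAS5, per the submitters' processing notes; the version, any scaling target and the scanner output were not used here. The deposited intensity is linear. Of 15923 probe sets, 57 controls were left out, an offset of 18.7 (the 10th percentile) was added, log2 taken and arrays quantile normalized. The platform annotation gave 12783 probe sets a lone symbol, 312 several and 2771 none. Each gene was read from its brightest probe set by mean, and genes whose mean reached the 40th percentile entered the tests. The fits used limma 3.58.1 under R 4.3.3 (lmFit, eBayes, trend prior, group and week as factors, 4 residual degrees of freedom, 3 for the week term), tested on simulated data. P-values are two-sided and Benjamini-Hochberg adjusted over 6990 genes in each of 6 comparisons. Those of second probe sets came from a separate fit and were adjusted over all probe sets that passed the filter. The week paired the arrays by design: with group means removed, same-week arrays had correlations across genes from 0.00934 to 0.325. The members and gene lists were chosen with earlier results of these data known. Named genes are all members, up to 4 genes of each list by moderated t, some genes fixed by name (not all are reported here) and the 5 nearest profiles. Alternatives covered scale, offset, filter, probe sets, prior, week block and left-out arrays.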

Additional observations from a re-analysis of the deposited data

How the results depend on the processing

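With 9 arrays and 1 pool for each group and week, the number of arrays limits every value. For STZ vehicle against normal, 209 of 210 member values kept their direction and side of the threshold, none passed, and the lowest adjusted p was 0.052, for Cnp without the normal pool of week 1. The exception was Pmp22, at 0.048 on the trimmed-mean scale. Without the week as a replicate block, 1 gene was called in STZ vehicle against normal, and 2 members were lower at an unadjusted p in FK1706 against normal. The prior without a trend also gave 2 there, and called 0 genes in STZ vehicle against normal, FK1706 against normal and all 3 comparisons of weeks. No filter called 0 genes in those group comparisons and in weeks 2 and 3 against week 1. The trimmed-mean scale called 0 genes in week 2 against week 1. It turned Mbp to 0.0040 in FK1706 against STZ vehicle, Pmp22 to 0.047 in FK1706 against normal, and Mbp to 0.084 and Pmp22 to 0.17 in week 3 against week 1. Testing all probe sets called 2 genes in FK1706 against normal, 0 in week 2 and 3 in week 3 against week 1. The filter at percentile 60 called 9 in week 3 against week 1 and 3 against week 2.

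The deposited scale called 16 genes in STZ vehicle against normal, 106 in FK1706 against normal, and 168, 5106 and 1605 in weeks 2 against 1, 3 against 1 and 3 against 2. It called 2, 5, 10 and 1 members in the last 4 of these. In FK1706 against normal it gave 10 members lower in every week and 10 lower at an unadjusted p. The median of all genes was then -0.17, and the matching shares of all genes were not computed. In FK1706 against STZ vehicle, where that median was -0.07, 1 member was lower in every week. In the same comparison the deposited scale turned Pllp to -0.017, Cd9 to -0.025, Ugt8 to -0.046 and Cldn19 to -0.064. In week 2 against week 1 it turned Sox10 to -0.15. In week 3 against week 2 it turned Mbp to -0.13, Pmp22 to -0.053, Mal to -0.10, Pllp to -0.22, Cd9 to -0.22, Ugt8 to -0.021, Prx to -0.13 and Cldn19 to -0.14.

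Leaving out 1 array or 1 week gave 0 to 6 genes called in STZ vehicle against normal, 0 to 2 in FK1706 against normal, 0 to 4, 0 to 11 and 0 to 2 in the comparisons of weeks 2 against 1, 3 against 1 and 3 against 2. Members lower at an unadjusted p ranged from 3 to 7 and, with FK1706 against normal, from 2 to 6, and those lower in every week in FK1706 against STZ vehicle from 0 to 2. In that last comparison Pllp ran from -0.024 to 0.11, Cd9 from -0.021 to 0.10, Ugt8 from -0.063 to 0.11, Cnp from -0.085 to 0.049 and Cldn19 from -0.099 to 0.15. Sox10 ran from -0.065 to 0.13 in week 2 against week 1. In week 3 against week 1 Pmp22 ran from -0.042 to 0.00027, Mal from -0.055 to 0.0039 and Cldn19 from -0.11 to 0.093. In week 3 against week 2 Mbp ran from -0.0077 to 0.080, Pllp from -0.050 to 0.080, Cd9 from -0.041 to 0.071 and Cnp from -0.092 to 0.043. Apart from the missing samples or genes, the cause of these changes was not tested.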
